A study of Rattus norvegicus with 15 samples.

Results

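The cytosolic ribosomal proteins were taken as the genes whose symbol starts with Rpl or Rps, with an optional p, followed by a number and an optional a, x or l. Of the 17055 genes in the count tables, 80 met that rule, 49 of the large subunit (Rpl) and 31 of the small subunit (Rps). Kinases of the S6 family (Rps6k genes), mitochondrial ribosomal proteins and a handful of ribosomal proteins with other names (such as Rpsa, Fau and Rpl36al) fell outside it. The islets came from Sprague-Dawley rats 10 days of age, and were dispersed into cells and transfected with miR-17-5p or with a control miRNA mimic. Each transfection was profiled as the RNA recovered with an antibody to Ago2, the microRNA-binding protein of the RNA-induced silencing complex (RISC), and as poly(A) mRNA. The groups held 4 miR-17-5p RISC libraries, 3 control RISC libraries, 5 miR-17-5p mRNA libraries and 3 control mRNA libraries. Oligo(dT) selection is described for the mRNA libraries, not for the RISC libraries, so a difference between the library types covers Ago2 association and library preparation, which cannot be told apart. Replicates carry the numbers of the sample titles (1, 2, 4, 5 and 6 for miR-17-5p mRNA, 2, 4, 5 and 6 for miR-17-5p RISC, 1, 2 and 3 for control). The descriptions number the replicates in another way and give every RISC library the same number, so p-values measure the spread between libraries, which may be technical.

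Ribosomal proteins and ribosomal RNAs are assembled in the nucleolus into the small subunit, which decodes the mRNA, and the large subunit, which forms peptide bonds. Most ribosomal protein mRNAs begin with a C followed by a run of pyrimidines, the 5' terminal oligopyrimidine (TOP) tract, through which the mTOR kinase controls their translation together with that of elongation factors. They are short, abundant mRNAs, many with introns that hold small nucleolar RNA (snoRNA) genes. Islet beta cells depend on a high rate of translation to make proinsulin.

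The transfected microRNA is rat miR-17-5p, whose mature form lies at chr15:98587861-98587883 on the plus strand of GRCr8 in RefSeq. It is shown because it is the agent tested; capitals mark the seed, bases 2 to 8, which pairs with target mRNAs.
rno-miR-17-5p: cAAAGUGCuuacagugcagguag
Matches to this seed in the ribosomal protein mRNAs were not analysed here.

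Counts in named genes ranged over 7819020 to 12733872 per miR-17-5p RISC library, 4185123 to 13420403 per control RISC library, 5870265 to 21056240 per miR-17-5p mRNA library and 3379456 to 10207925 per control mRNA library. The ribosomal RNA precursor Rn45s took 26.6% to 42.6%, 23.6% to 37.9%, 3.75% to 12.8% and 3.13% to 9.99% of these counts, in the same order of groups. The islet label was borne out by 7 beta cell markers, among them the insulin genes, which summed to 257217 to 476752 counts per 1000000 (CPM) in miR-17-5p mRNA and 364499 to 440869 CPM in control mRNA, with none of the 7 at 0 in a group. CPM here are taken after trimmed-mean (TMM) scaling of the library sizes within a library type.

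Not every ribosomal protein gene could be read in these tables. Rpl37a, Rpl7a, Rpl8, Rplp2, Rps6 and Rps9 were listed at 0 in 15 of 15 libraries. Among them are an acidic stalk protein that helps recruit elongation factors (Rplp2) and the best-known substrate of S6 kinase (Rps6). Ribosomal proteins that every cell makes cannot be taken as absent at a count of 0. Reads with more than one alignment made up 15% to 31.2% of all entries of a library's count table, summary lines included. These reads were not counted per gene, and the cause of the counts of 0 was not tested. RefSeq lists 17 entries named as pseudogenes or numbered copies for Rpl37a, 21 for Rpl7a, 6 for Rpl8, 5 for Rplp2, 11 for Rps6 and 17 for Rps9. Among the rarely counted genes described next it lists 20 for Rps19, 0 for Rpl3l and 2 for Rpl22l1. The median was 11 (range 0 to 21) for all of these together and 14 (0 to 36) for the other 70 members matched, with overlapping ranges. Another 3 genes had under 30 counts in all 15 libraries together, namely Rps19 with 28, the muscle-enriched paralog Rpl3l with 19 and the testis-enriched paralog Rpl39l with 5. Rpl22l1, the paralog of Rpl22, had 162 counts in 8 libraries. The counting was unstranded, so reads of overlapping antisense transcripts could not be told from those of a member. Near-identical copies and pseudogenes could also share reads with any member.

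The control RISC libraries stood apart before any comparison between groups, in these genes as in all genes. At equal depth, thinned to 4185123 counts, 8915 to 10641 genes of any kind were detected per miR-17-5p RISC library, against 5589 to 7114 per control RISC library. Members with more than 3 counts numbered 68, 68, 71 and 67 in miR-17-5p RISC replicates 2, 4, 5 and 6, against 45, 49 and 33 in control RISC replicates 1, 2 and 3. Each mRNA library had 70 to 73. At that depth, which is the depth of control RISC replicate 3, the numbers of members detected were 67 to 71 in miR-17-5p RISC, 38 to 55 in control RISC and 70 to 73 in mRNA, where 1 control library of lower depth was left out. The gap between the RISC groups was thus present at equal depth. Among the 71 members tested in mRNA, 29 had at most 3 counts in one control RISC library and more than 100 in another, as did 3 of 71 in miR-17-5p RISC and 0 of 71 in either mRNA group. The stalk protein gene Rplp1 shows the pattern. It had 50.8, 44.6, 38.7 and 29.1 CPM in miR-17-5p RISC replicates 2, 4, 5 and 6, against 0.384, 42.3 and 0 CPM in control RISC replicates 1, 2 and 3. Control RISC replicate 2 lay among the miR-17-5p libraries and the other two were at or near 0. The cause of this unevenness was not tested.

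As a group, the 80 genes took 0.322%, 0.366%, 0.27% and 0.269% of the counts in miR-17-5p RISC replicates 2, 4, 5 and 6, and 0.297%, 0.24% and 0.27% in control RISC replicates 1 to 3. In mRNA they took 2.75%, 4.69%, 3.85%, 3.44% and 3.27% in miR-17-5p replicates 1, 2, 4, 5 and 6, and 3.15%, 2.51% and 2.29% in control replicates 1 to 3. The RISC groups overlapped, the mRNA groups overlapped through miR-17-5p replicate 1 and control replicate 1, and every RISC library lay below every mRNA library. The means were 0.307% ± 0.0466 (SD, n = 4), 0.269% ± 0.0285 (n = 3), 3.6% ± 0.726 (n = 5) and 2.65% ± 0.447 (n = 3), in the order miR-17-5p RISC, control RISC, miR-17-5p mRNA, control mRNA. Shares of counts move with Rn45s and insulin. With Rn45s, Ins1 and Ins2 left out of the total, the means were 0.455%, 0.388%, 5.98% and 4.86%, and every miR-17-5p mRNA library (5.38% to 6.94%) then lay above every control mRNA library (4.52% to 5.34%).

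**Figure D1:**
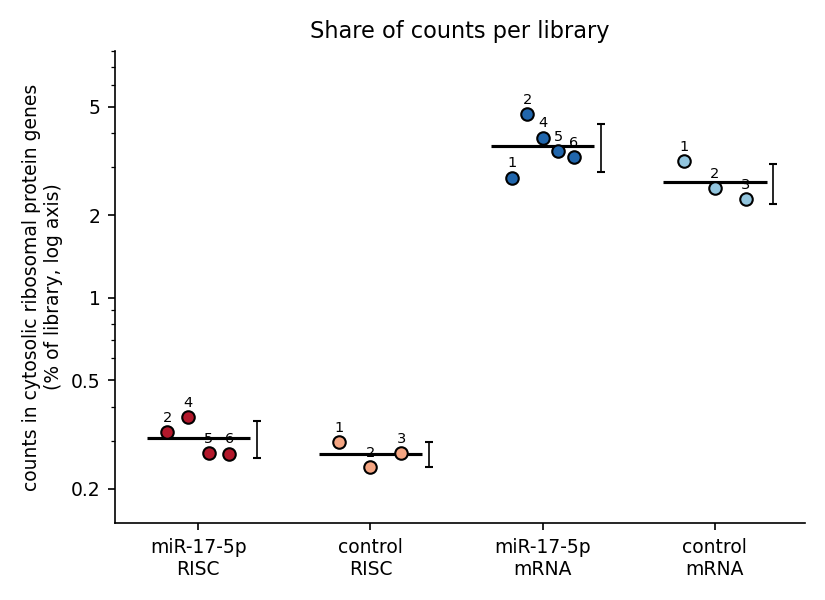
Percent of counts in named genes that fell in the 80 cytosolic ribosomal protein genes, for each of the 15 libraries (points) in 4 groups on a log axis, with the group mean (line) and SD (bar). RISC libraries lie between 0.24% and 0.366% and mRNA libraries between 2.29% and 4.69%.

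Within the group, counts were spread over many genes. The leading 5 members of the control mRNA libraries took 15.8% to 17.6% of all member counts in miR-17-5p mRNA libraries and 15.5% to 16.8% in control mRNA libraries. Rplp1 led with 4.72% ± 0.669 (SD, n = 5) in miR-17-5p mRNA and 4.49% ± 0.179 (n = 3) in control mRNA. Rpl41, which encodes the smallest ribosomal protein, followed with 3.85% and 3.97%, then Rps2, a protein near the mRNA entry channel, with 3.04% and 2.76%, Rplp0, the base of the stalk, with 2.77% and 2.71%, and Rpl19 with 2.39% and 2.44%. At the low end of the reliably counted members stood Rps27l, the paralog of Rps27, with 0.194% and 0.192%, and Rpl39, a small protein that lines the peptide exit tunnel, with 0.168% and 0.118%. These are shares of counts, which grow with transcript length, and no transcript lengths were used, so they do not rank the genes by molecules.

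In poly(A) mRNA the ribosomal protein genes sat slightly higher with miR-17-5p than with control mimic, nearly all in the same direction. Of 71 members tested, 69 had a positive log2 fold change, against 50.7% of all 11077 genes tested. The median log2 fold change was 0.41, against 0.01 for all genes tested, and the values ran between -0.28 and 0.93. By edgeR's quasi-likelihood test at a Benjamini-Hochberg adjusted p under 0.05, 4 members were called higher (5.63% of 71, against 3.11% of all genes) and 0 lower (0.767% of all genes; 3.87% in either direction). The share called was close to the background. At an unadjusted p under 0.05, 52 were higher (73.2%, against 11% of all genes) and 0 lower (8.0% of all genes). DESeq2 called 20 higher (28.2%, against 5.58% of all genes) and limma-voom 25 (35.2%, against 5.27%), each with 0 lower (2.43% and 3.91% of all genes). For 26 members (36.6%) every miR-17-5p library lay above every control library, against 8.51% of all genes, and for 0 members below, against 6.68%.

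Among the genes called were Rpl5, Rpl24 and Rps20, which are described here. Rpl5 encodes one of the proteins that carry 5S ribosomal RNA into the large subunit and, when free of ribosomes, bind the p53 regulator Mdm2 in human and mouse cells. It had 707, 874, 886, 726 and 636 CPM in miR-17-5p replicates 1, 2, 4, 5 and 6, against 493, 522 and 526 CPM in control replicates 1 to 3. Its control values lay close together and below all 5 miR-17-5p values (log2 fold change 0.58 ± 0.14 SE, edgeR adjusted p = 0.0421). Its partner in that particle, Rpl11, had 382, 511, 408, 350 and 365 CPM against 414, 341 and 312 CPM, with overlapping groups, and did not pass (0.18 ± 0.15, adjusted p = 0.571).

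Rpl24, a large subunit protein altered in the Belly spot and tail mouse, had 316, 456, 446, 350 and 331 CPM with miR-17-5p, against 261, 268 and 217 CPM with control mimic, again without overlap (0.61 ± 0.16, edgeR adjusted p = 0.0475). Rps20, of the small subunit head, had 588, 899, 786, 618 and 551 CPM against 461, 353 and 410 CPM (0.75 ± 0.18, adjusted p = 0.0341). Its groups did not overlap either, and miR-17-5p replicates 2 and 4 held the 2 highest values of each of these 3 genes.

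Just short of the threshold stood Rpl14, with 439, 626, 533, 506 and 424 CPM against 374, 338 and 302 CPM (0.58 ± 0.15, edgeR adjusted p = 0.0502). Rpl39 had the largest fold change of the members tested, with 39.2, 92.9, 65.7, 48.3 and 57 CPM against 34.7, 33.9 and 26.2 CPM (0.93 ± 0.25, adjusted p = 0.0548). Both were non-overlapping, and Rpl39 varied more than 2-fold among the miR-17-5p libraries. The stalk genes had log2 fold changes of 0.42 ± 0.17 for Rplp0 (adjusted p = 0.188) and 0.47 ± 0.15 for Rplp1 (adjusted p = 0.116). Rps27a, made as a fusion with ubiquitin, stood at 0.37 ± 0.14 (adjusted p = 0.151). The paralogs Rps27 and Rps27l stood at 0.28 ± 0.18 and 0.41 ± 0.16, neither called. The only members below 0 were Rpl36 (-0.04 ± 0.13, adjusted p = 0.908) and Rpl22l1, whose few counts gave a wide error (-0.28 ± 0.99, adjusted p = 0.912). The medians of the subunits were close, at 0.40 for the 43 large subunit members and 0.42 for the 28 small subunit members.

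**Figure D2:**
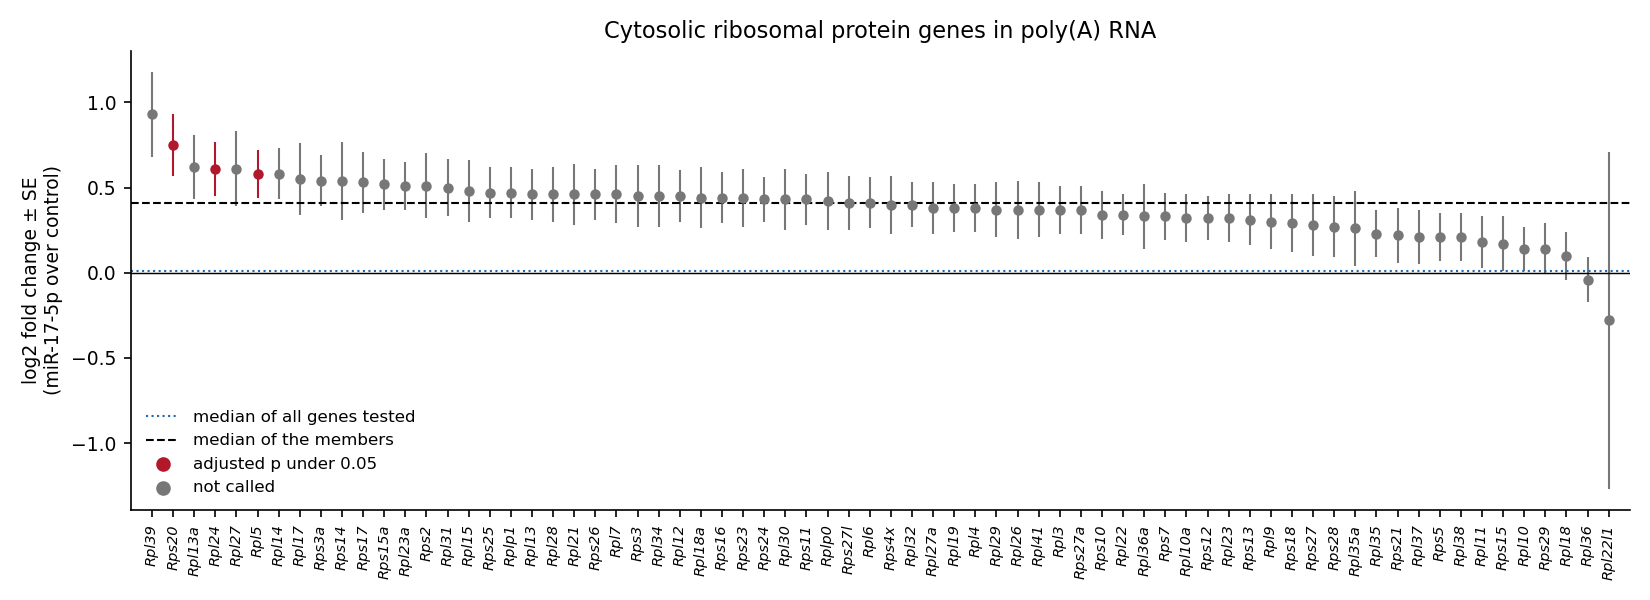
Log2 fold change, miR-17-5p over control mimic, of 70 of the 71 ribosomal protein genes tested in poly(A) mRNA (points, with bars of 1 SE), ordered by value, with the genes called by edgeR marked. All points but those of Rpl36 and Rpl22l1 lie above 0, and the median of the 71 genes is 0.41.

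The shift was uneven across libraries. The median member stood 0.21, 0.64, 0.54, 0.31 and 0.23 log2 units above its control mean in miR-17-5p replicates 1, 2, 4, 5 and 6, and 0.16, -0.06 and -0.12 from it in control replicates 1, 2 and 3. Control replicate 1 thus lay near miR-17-5p replicates 1 and 6. The 4 calls turned on the libraries used, and without 1 library the number called was 14 (miR-17-5p replicate 1 left out), 2 (replicate 2), 0 (replicate 4), 0 (replicate 5) and 3 (replicate 6), and 2, 0 and 0 without control replicates 1, 2 and 3. Over these fits the share of all genes called higher ran between 0.653% and 4.94%. At an unadjusted p under 0.05 by edgeR, 22 to 53 members were higher in these fits (31.0% to 74.6%, against 8.55% to 12.3% of all genes).

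Genes known to share the TOP tract, translation elongation factors among them, lay on the same side. Of 18 tested, 17 had a positive value and the median was 0.33. At an unadjusted p under 0.05, 10 were higher and 0 lower, and DESeq2 called 6 and limma-voom 7 higher. For 7 of them (38.9%) every miR-17-5p library lay above every control library, against 36.6% of the members and 8.51% of all genes. Called by edgeR were Npm1, a nucleolar chaperone of ribosome assembly (0.69 ± 0.17 SE, edgeR adjusted p = 0.0375), and Eef1b2, a nucleotide exchange factor for the elongation factor that delivers aminoacyl-tRNA (0.61 ± 0.15, adjusted p = 0.044). The 5 ribosomal proteins outside the symbol rule had a median of 0.37, with 0 called (3 at an unadjusted p under 0.05; 0 by DESeq2, 1 by limma-voom). Of 65 mitochondrial ribosomal proteins, which serve the organelle's own ribosome, 40 were above 0 with a median of 0.09 and 0 calls by edgeR (2 higher and 2 lower at an unadjusted p under 0.05; 1 higher by DESeq2, 1 lower by limma-voom). The 39 ribosome biogenesis genes had a median of 0.11 and 0 calls (4 higher and 1 lower at an unadjusted p under 0.05; 1 higher by each other tool). Nucleolin (Ncl) came nearest at 0.45 ± 0.12 (adjusted p = 0.0526). Among 15 genes that control ribosomal protein synthesis, with a median of -0.01, Eif4ebp1 was called higher. It encodes the initiation repressor 4E-BP1, a direct mTOR substrate, and its value was 0.97 ± 0.2 (adjusted p = 0.0198). Myc, a transcriptional activator of ribosome genes, was not called (0.84 ± 0.33, adjusted p = 0.183).

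**Figure D3:**
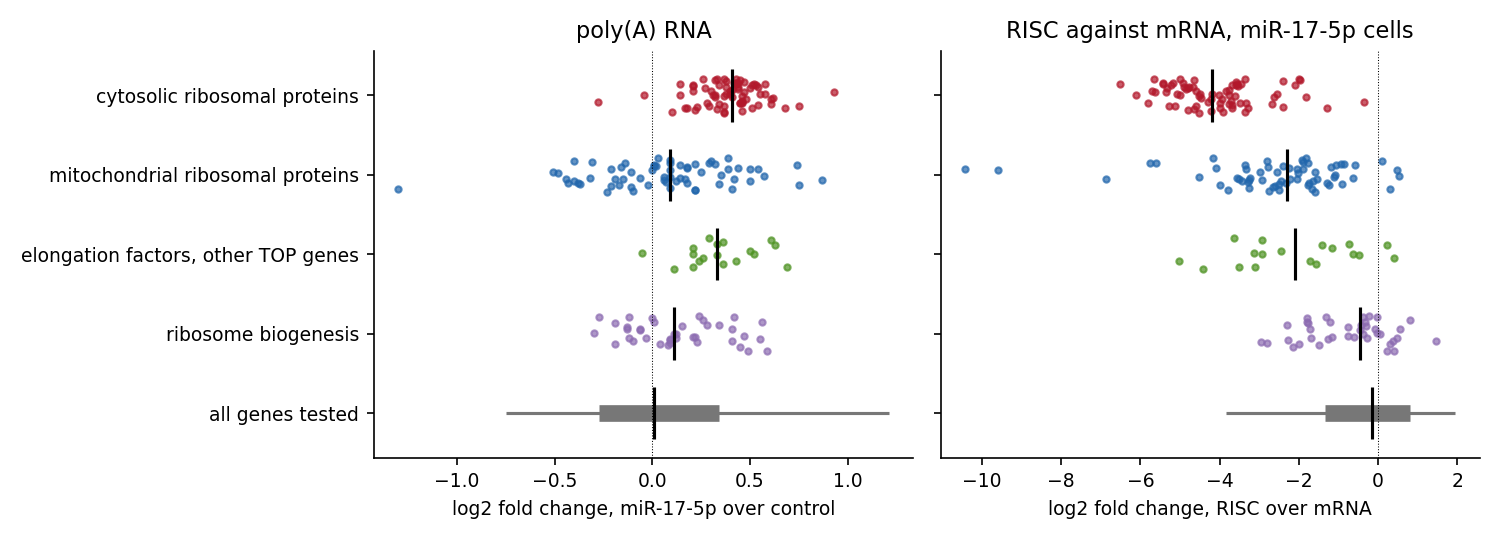
Log2 differences of the genes of each list (points; black line, median) beside all genes tested (grey bar, 25th to 75th percentile; line, 5th to 95th), for miR-17-5p over control mimic in mRNA and for RISC over mRNA in miR-17-5p cells. The cytosolic ribosomal proteins have medians of 0.41 and -4.20, against 0.01 and -0.15 for all genes.

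Markers of other cell types moved with the same comparison. The summed level of 10 stellate cell and fibroblast markers was 16092 to 36708 CPM in miR-17-5p mRNA and 8796 to 15437 CPM in control mRNA, and 6 of the 9 tested were called higher, with Col1a2 listed at 0 in every library. Red blood cell markers summed to 10.1 to 25.7 CPM against 33.8 to 151 CPM, and 3 of 4 were called lower, with a median log2 fold change of -2.37. The 7 beta cell markers had a median of -0.48 and macrophage markers summed to 90.1 to 238 CPM against 32.7 to 172 CPM, with no gene of either list called by edgeR (3 of 7 lower and 1 of 8 higher at an unadjusted p under 0.05). DESeq2 and limma-voom each called 2 of the beta cell markers lower and 0 of the macrophage markers. Endothelial markers summed to 22.1 to 64.9 CPM against 71.0 to 98.3 CPM with 2 of 7 called lower, and 1 of 4 duct and 1 of 7 alpha, delta and PP cell markers were called lower. The part of cell composition in the ribosomal protein values was not tested, and in these bulk libraries fewer cells of a type and less RNA per cell cannot be told apart.

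Since the members lay on one side together, their promoters were read for shared letters. RefSeq (GRCr8) gave a promoter for 64 of the 79 members matched by symbol, covering 250 bases before the annotated start and 50 after it. A C followed by 4 bases that are each C or T, on the gene's strand and exactly at the start, was found in 24 of 64 members (37.5%), against 2.63% of all 33469 promoters in the table. Within 10 bases of the start it was found in 47 (73.4%), against 27.8%. The letters CCGGAA on either strand, the core of ETS-family sites, were found in 32 members (50%), against 15%, and TATAAA in 7 (10.9%), against 14.2%. A match describes letters only.

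The windows below run from 25 bases before the annotated start through the first 15 bases of the transcript. They were chosen to show a called gene with a tract (Rpl5), a called gene without one (Rpl24), both stalk genes, and the paralogs Rpl22 and Rpl22l1. Capitals mark every stretch of a C and the 4 pyrimidines after it that begins within 10 bases of the start, overlapping stretches being joined. Pyrimidines beyond it stay in lower case.
Rpl5, chr14:1995211-1995250 of GRCr8, minus strand: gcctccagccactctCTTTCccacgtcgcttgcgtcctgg
Rpl24, chr11:58128391-58128430, minus strand: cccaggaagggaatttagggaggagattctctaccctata
Rplp0, chr12:46718376-46718415, minus strand: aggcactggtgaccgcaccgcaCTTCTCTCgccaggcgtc
Rplp1, chr8:71290858-71290897, minus strand: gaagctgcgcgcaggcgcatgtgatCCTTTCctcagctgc
Rpl22, chr5:168117936-168117975, plus strand: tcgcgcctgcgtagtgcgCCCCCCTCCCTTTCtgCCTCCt
Rpl22l1, chr2:113683171-113683210, plus strand: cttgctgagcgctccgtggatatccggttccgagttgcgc
Members with such a tract exactly at the start and those without had the same median log2 fold change with miR-17-5p in mRNA, 0.38 for 23 and 0.38 for 34 genes. Their medians for RISC over mRNA in miR-17-5p cells were -4.53 and -3.95.

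A far larger difference lay between library types. In miR-17-5p cells, 70 of 71 members were lower in RISC than in mRNA by edgeR (98.6%, against 21.8% of all 10871 genes tested). All 71 values were below 0, against 46.0% of all genes above 0 and 21.7% of all genes called higher. In CPM scaled within each library type, which is not a joint scale, the same 70 members had every RISC library below every mRNA library, against 20.7% of all genes. The median log2 difference was -4.20, against -0.15 for all genes. It was -4.01 for large and -4.52 for small subunit members. The exception, Rpl22l1, had counts in 1 of 4 RISC libraries and did not pass (-0.36 ± 1.74, adjusted p = 0.891). No left-out library and no other setting changed the 70.

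The depth of the difference ranged widely. Rps15a, a small subunit protein, had 1.01, 12.5, 1.57 and 0.333 CPM in miR-17-5p RISC, against 240, 339, 326, 290 and 267 CPM in miR-17-5p mRNA. RISC replicate 4 was far above the other 3 and still far below every mRNA library (log2 difference -6.52 ± 0.77 SE, edgeR adjusted p = 4.2e-05). Rps12 had 13.7, 17.4, 6.38 and 12.5 CPM against 623, 730, 745, 758 and 646 CPM (-6.11 ± 0.27). Rplp1, with the RISC values given above, had 1370, 1607, 1866, 1914 and 1542 CPM in mRNA (-5.63 ± 0.23, adjusted p = 1.0e-07). The ubiquitin fusion Rps27a had even RISC values of 17.2, 13.9, 14 and 16.1 CPM, against 265, 325, 292, 254 and 290 CPM in mRNA, which gave one of the smallest p-values (-4.51 ± 0.16, adjusted p = 3.0e-08).

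Toward the other end stood Rpl23, a large subunit protein that binds Mdm2 in human cells (-1.82 ± 0.19), Rpl10a (-1.96 ± 0.14), Rpl3, which reaches toward the peptidyl transferase centre (-1.99 ± 0.18), and Rpl22 (-2.10 ± 0.19). Rpl10a had 119, 129, 127 and 145 CPM in RISC, against 357, 481, 422, 433 and 364 CPM in mRNA. CPM were scaled within a library type, and the log2 differences between types come from a joint scaling, so the CPM ratio and the log2 difference need not match.

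In miR-17-5p cells, other translation genes had medians nearer to 0. The TOP list had 16 of 18 lower and 1 higher with a median of -2.09, the mitochondrial ribosomal proteins had 38 of 64 lower with a median of -2.29, and biogenesis genes had 14 of 39 lower and 2 higher with a median of -0.46. The 5 ribosomal proteins outside the symbol rule were all lower, with a median of -3.96. Tpt1, an abundant TOP mRNA, stood at -4.42 ± 0.32, and the insulin genes Ins1 and Ins2 at -5.12 ± 0.28 and -4.79 ± 0.32. Higher in RISC were the biogenesis helicase Ddx21 (1.46 ± 0.13), the processome component Wdr43 (0.81 ± 0.17) and Larp4b, an RNA-binding protein that stabilises mRNAs (1.94 ± 0.16, edgeR adjusted p = 3.0e-06).

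In control cells, all 70 members tested had a negative value for RISC over mRNA, with a median of -4.76, against -0.69 for all 10170 genes tested. Fewer passed: 33 were lower (47.1%, against 22.3% of all genes, of which 5.96% were called higher). In CPM scaled within each library type, 68 of 70 were without overlap between the types, against 34.3% of all genes below. The calls depended on single libraries. Without control replicate 1 no gene of the 9912 tested was called, so 0 members were. Without replicate 2 the members called were 42 (60%, against 28% of all genes), and without replicate 3 they were 32 (45.7%, against 24.6%). Of the 33 called, 12 had at most 3 counts in every control RISC library and 18 more than 3 in every one; of the 37 not called, 30 had libraries on both sides of 3 counts. Members with at most 3 counts in every control RISC library passed the count filter only through their mRNA counts. Their lower side was therefore set by the filter. All 33 members called lower in control cells were also lower in miR-17-5p cells. The other lists did not all lie nearer to 0 than the members in control cells. The mitochondrial ribosomal proteins had a median of -5.23 with 30 of 63 lower (47.6%). The 5 ribosomal proteins outside the symbol rule had a median of -5.23 with 2 lower. The TOP list had a median of -2.18 with 6 of 18 lower, and biogenesis genes -0.76 with 4 of 39 lower.

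Rpl32 was among the evenest. It had 28.9, 33 and 31.3 CPM in control RISC, against 521, 508 and 458 CPM in control mRNA, far apart (-4.43 ± 0.17, edgeR adjusted p = 0.00337). Rpl41 had 109, 145 and 111 CPM against 1125, 1121 and 933 CPM, also far apart (-3.56 ± 0.19, adjusted p = 0.00365). In these CPM, scaled within each library type, the groups overlapped for Rpl27, which had 157, 84.4 and 100 CPM against 229, 166 and 125 CPM. Its log2 difference, from the joint scaling, was -1.04 ± 0.37 (edgeR adjusted p = 0.0996), and overlap on the joint scale was not examined. Rpl23 had 122, 57.7 and 179 CPM against 200, 181 and 208 CPM, without overlap in these CPM, and did not pass (-1.15 ± 0.43, edgeR adjusted p = 0.116).

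The order of the members was partly shared between the transfections. Rpl22l1, nearest of all in miR-17-5p cells (-0.36) but not tested in control cells, was left out of this ranking. Of the 10 other members nearest to their mRNA level in each, 7 were shared, among them Rpl23, Rpl10a, Rpl3, Rpl5, Rpl6 and Rpl27. Across the 70 members tested in both, the RISC-over-mRNA values had a Pearson correlation of 0.51 and a Spearman correlation of 0.62, and across the 25 with more than 3 counts in every control RISC library they had 0.77 and 0.70. No library is shared by the 2 sets of values, but the genes are not independent and share length, base composition and library type.

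**Figure D4:**
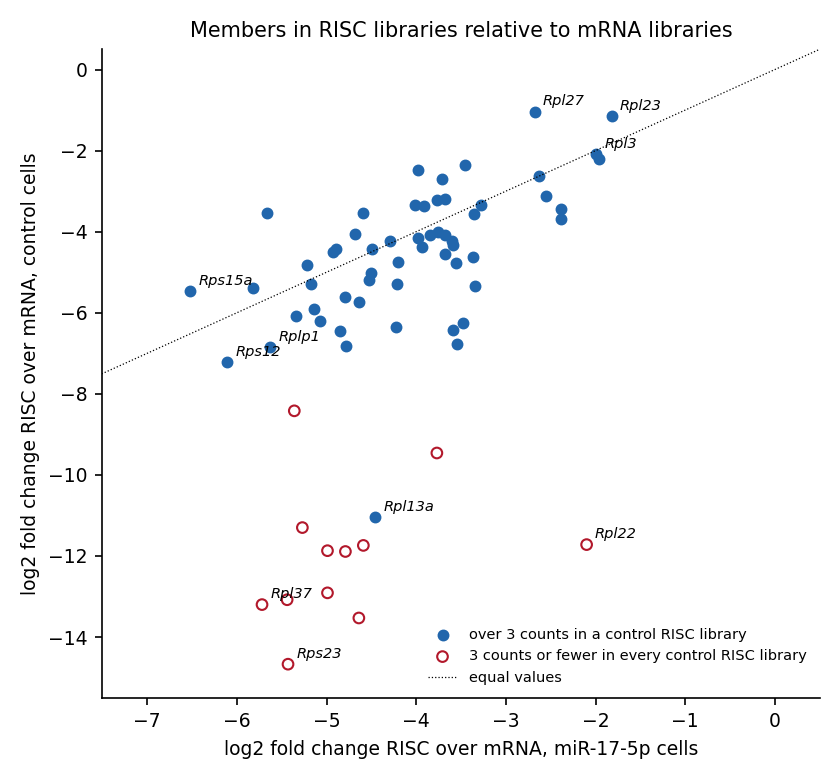
Log2 difference, RISC over mRNA, of each ribosomal protein gene in miR-17-5p cells and in control cells (1 point a gene, 69 of the 70 genes tested in both), with genes at 3 counts or fewer in every control RISC library marked. All points lie below 0 in both, and Rpl23 lies at -1.82 and -1.15.

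Of the 70 members tested in both transfections and with a place in RefSeq (GRCr8), 27 hold a snoRNA gene within their bounds. Rpl22l1, not tested in control cells, is not among the 70. The median RISC-over-mRNA value was -4.01 for the 27 and -4.22 for the other 43 in miR-17-5p cells, and -4.08 and -5.30 in control cells. Among the 10 of these 70 nearest to their mRNA level in miR-17-5p cells, 6 hold one and 9 are of the large subunit. Among the 10 farthest, 4 hold one and 5 are of the large subunit. Whether reads from these snoRNAs or from unspliced transcripts entered the counts was not tested.

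Within RISC, no member was called between the transfections. Of 69 tested, 0 were higher (0.339% of all 9443 genes) and 0 lower (0.0318% of all genes) by edgeR. At an unadjusted p under 0.05, 15 were higher (21.7%, against 17.7% of all genes) and 1 lower (1.45%, against 2.39%). DESeq2 called 14 higher (20.3%, against 12.1% of all genes) and 1 lower (1.45%, against 1.67%). By limma-voom 0 and 0 were called (0.169% of all genes higher and 0.0318% lower). The median log2 fold change was 0.97, against 0.27 for all genes, and 52 of 69 were above 0, against 59.0% of all genes. In 18 members (26.1%) every miR-17-5p RISC library lay above every control RISC library, against 17.8% of all genes, and in 2 below, against 3.19%. Leaving out control replicate 2 gave 16 higher (23.2%, against 11.4% of all genes), leaving out miR-17-5p replicate 4 gave 5 (7.46%, against 5.99%) and leaving out control replicate 3 gave 2 (2.9%, against 1.12%).

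Rpl22, an RNA-binding large subunit protein, had the smallest p. It had 37.8, 62.3, 36.3 and 63 CPM in miR-17-5p RISC replicates 2, 4, 5 and 6, against 0, 0.128 and 0 CPM in control RISC replicates 1 to 3. Those are 1786 counts against 1 count, a ratio of 1190 after division by the unscaled counts in named genes (95% interval for counting error 213 to 47030). The edgeR adjusted p was 0.0629. In mRNA the same gene had 150, 192, 178, 171 and 174 CPM against 143, 136 and 130 CPM, a far smaller difference without overlap. In all, 11 of the 69 (15.9%) had at most 3 counts in every control RISC library, against 14.3% of all genes tested there, so this feature was about as frequent among all genes. Such genes passed the count filter only through their miR-17-5p RISC counts. Their higher side was therefore set by the filter, and they are part of the 52 members above 0 and of the median. Rps23, a protein of the decoding centre, had 501 counts in miR-17-5p RISC and 0 in control RISC, at least 37.1-fold higher against a floor of 3 counts per control library. Rpl36a had 335 and 0 counts, at least 24.8-fold, and Rpl35a 150 and 0 counts, at least 11.1-fold. Rpl37 had 358 and 1 counts, a ratio of 239 (42.5 to 9448). Rpl13a, known in human cells for a role in translational silencing outside the ribosome, had 42.7, 49.1, 46.7 and 42.2 CPM against 0.64, 0.128 and 0 CPM, with miR-17-5p libraries close together (7.28 ± 1.67, edgeR adjusted p = 0.0725). On the lower side, Rpl27 came first, with 43.8, 51, 55.3 and 52.7 CPM against 157, 84.4 and 100 CPM. Its groups did not overlap, and it did not pass (-1.17 ± 0.40, adjusted p = 0.129).

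The last comparison asked whether the RISC-over-mRNA value itself differed between the transfections, in a model with all 15 libraries and 1 estimate of spread per gene. By edgeR 13 of 71 members were higher with miR-17-5p (18.3%, against 13.0% of all 11418 genes) and 3 lower (0.394% of all genes). The median was 0.51, against 0.40 for all genes, and 47 members were above 0, against 62.1% of all genes, so the higher side was close to the background. Leaving out control replicate 1 gave 20 higher (28.2%, against 16.5% of all genes) and leaving out control replicate 2 gave 24 (33.8%, against 20.7%). By limma-voom 0 of all 11418 genes were called in either direction. The spread of the RISC libraries is far above that of the mRNA libraries (biological coefficient of variation 1.23 and 0.305), and a shared estimate takes in both.

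The 13 higher were Rpl22, Rps23, Rpl36a, Rpl35a, Rps29, Rpl37, Rpl9, Rps21, Rpl36, Rpl13a, Rpl26, Rps27l and Rpl38. For 11 of them each control RISC library had at most 3 counts, so their fitted values, between 5.61 and 9.54 log2 units, depend on the prior count and are no bound. Rpl13a, with 10, 1 and 0 control RISC counts, is close to that. Rpl38, which in mouse affects the translation of Hox mRNAs, rests on more. It had 55.2, 67.7, 56.7 and 47.7 CPM in miR-17-5p RISC, against 7.69, 0.256 and 9.38 CPM in control RISC, without overlap. In mRNA it had 448, 610, 585, 576 and 480 CPM against 522, 468 and 407 CPM, with overlap (log2 difference of differences 3.06 ± 0.78, edgeR adjusted p = 0.0166).

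The 3 lower were all well counted in every library. Rpl27, with the RISC values given above, had 233, 373, 286, 220 and 212 CPM in miR-17-5p mRNA, against 229, 166 and 125 CPM in control mRNA, so RISC lay lower while mRNA values overlapped (-1.80 ± 0.38, edgeR adjusted p = 0.00489). Rpl28 had 28, 24.6, 39.4 and 39.1 CPM in miR-17-5p RISC, against 55.8, 109 and 58.4 CPM in control RISC, without overlap. Its mRNA values were 355, 513, 426, 418 and 402 CPM against 375, 292 and 253 CPM (-1.66 ± 0.35, adjusted p = 0.00499). Rpl21 had 35.9, 53.1, 37.8 and 31.1 CPM in RISC against 81.2, 49.5 and 63 CPM, with an overlap through control replicate 2 (-1.19 ± 0.33, edgeR adjusted p = 0.0258). Rpl27 and Rpl28 stayed called in each fit that left out a replicate. Rpl21 was called in the fits without miR-17-5p replicate 1 or 4 and in none of the others. Among mitochondrial ribosomal proteins 17 of 65 were higher, with a median of 1.69. Stellate markers summed to 25366 to 28285 CPM in miR-17-5p RISC and 4578 to 10468 CPM in control RISC, and the part of that difference in these values was not tested.

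**Figure D5:**
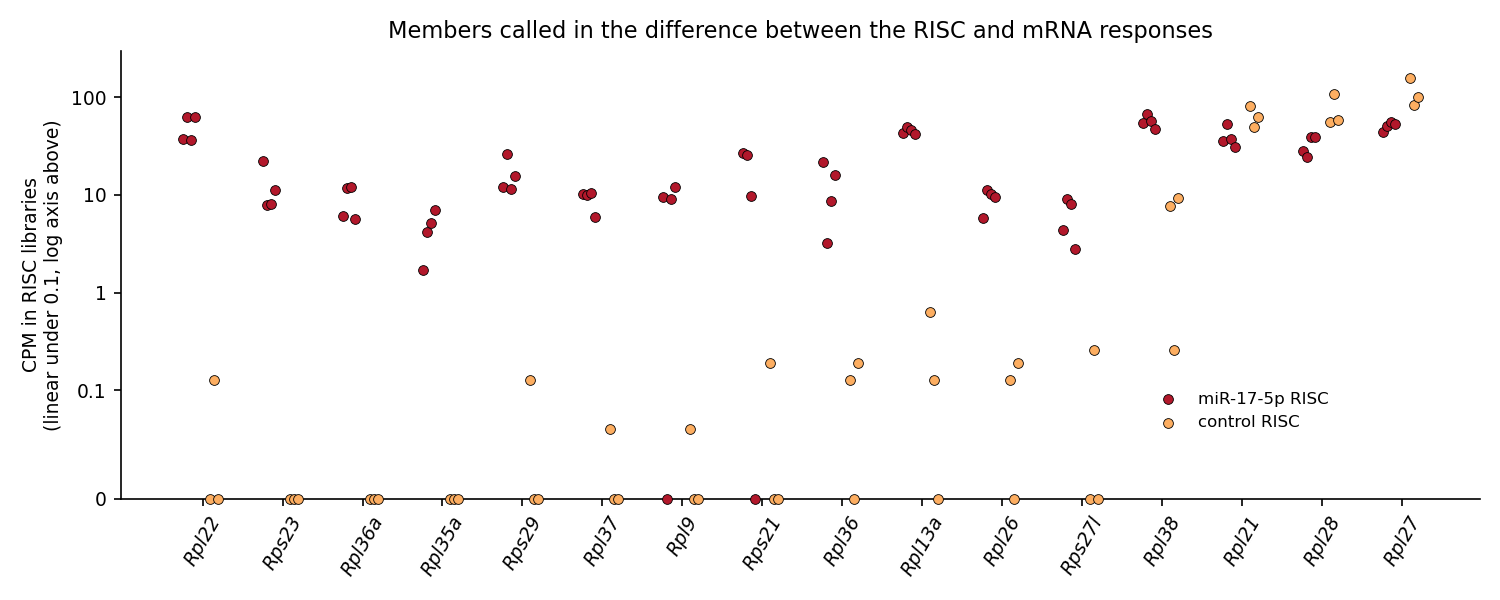
CPM in each RISC library (points; miR-17-5p left of control, log axis with a linear part near 0) of the members whose RISC-over-mRNA value differed between transfections by edgeR. For the 13 higher genes most control libraries sit at or near 0, while Rpl27, Rpl28 and Rpl21 are counted in every library. Rpl27 and Rpl28 lie lower in every miR-17-5p library, and the groups overlap for Rpl21.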

How the data were processed

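The values were whole-number counts per gene, deposited by the authors as 1 file per library. Per the submitters' processing notes, the tools were TopHat2 2.0.10, Bowtie2 and HTSeq and the rat build was rn5; the settings for multiply aligned reads were not given in the sources used here. Per the labels' protocols, the libraries are single-end and unstranded. The counter's summary lines were left out of library sizes. The main test was edgeR 4.0.16 run in R 4.3.3 (TMM, filterByExpr, robust quasi-likelihood test, Benjamini-Hochberg adjustment over all genes tested, threshold 0.05); SE is the log2 fold change divided by the square root of F. CPM were computed from the deposited counts with TMM-scaled library sizes. Within each library type miR-17-5p was set against control, within each transfection RISC was set against mRNA, and the change of RISC over mRNA between transfections was tested. A gene was taken as undetected in a library at 3 counts or fewer; floors and 95% intervals cover counting error only. Fits were tested on simulated data. Alternatives used limma 3.58.1 and DESeq2 1.42.0, other scalings and filters, a replicate block and left-out libraries; for comparisons between library types, the mRNA and RISC libraries of a number were left out together. No pair of libraries within a group had near-identical counts, and pairs across groups were not compared. Same-numbered libraries did not deviate together over all genes tested, and the main fit had no replicate block. With few and unevenly counted libraries per group, that check cannot exclude that the numbers pair libraries. Members, lists and tests were chosen with earlier results of these data known. Named members are those called, the 5 lowest p-values each way, the highest and lowest in control mRNA, those listed at 0, and stalk, p53-linked, ubiquitin-fused and paralogous members; other members were named as examples after their values were seen. Results for some genes are not reported here and 1 gene is left out of figures that show genes singly.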

Additional observations from a re-analysis of the deposited data

Results flagged for a closer look

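The RISC-over-mRNA value differed between miR-17-5p and control cells by the model over all 15 libraries (edgeR, adjusted p under 0.05) for 16 members. The higher ones, in log2 units, were Rpl22 (9.54), Rps23 (9.17), Rpl36a (8.81), Rpl35a (7.88), Rps29 (7.48), Rpl37 (7.31), Rpl9 (6.96), Rps21 (6.87), Rpl36 (6.72), Rpl13a (6.34), Rpl26 (5.88), Rps27l (5.61) and Rpl38 (3.06). Apart from Rpl13a and Rpl38, each had at most 3 counts in every control RISC library, so these fitted values depend on the prior count. The lower ones were Rpl27 (-1.80), Rpl28 (-1.66) and Rpl21 (-1.19).

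Rpl37 in miR-17-5p RISC replicate 6 (5.99 CPM) lay apart from replicates 2, 4 and 5 (10.3, 9.91 and 10.5 CPM) by Dixon's criterion. Of 19 groups checked, about 1 in 20 is flagged by chance.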

How the results depend on the processing

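In miR-17-5p cells the 70 members lower in RISC than in mRNA numbered 70 under every alternative run, against 17.1% to 28.3% of all genes. The 4 members called higher in mRNA became 7 without a count filter (9.46%, against 2.69% of all genes) and 8 with a mean of at least 50 counts (11.4%, against 4.51%). They became 20 by DESeq2 (28.2%, against 5.58%) and 25 by limma-voom (35.2%, against 5.27%). Without 1 library they were 0 to 14 (0.653% to 4.94% of all genes), while the median stayed between 0.33 and 0.49. The replicate block gave 0 calls among all genes in mRNA, members included. It left 1 member higher at an unadjusted p under 0.05 by edgeR (1.41%, against 2.68% of all genes). For RISC over mRNA it gave 70 lower in miR-17-5p cells (98.6%, against 17.1% of all genes) and 27 in control cells (38.6%, against 1.64%). For the difference between them it gave 10 higher (14.1%, against 4.3%) and 2 lower (2.82%, against 0.0525%). Correlations of same-numbered libraries ran from -0.141 to 0.047. In RISC between transfections, DESeq2 called 14 higher (20.3%, against 12.1% of all genes) and 1 lower (1.45%, against 1.67%). Leaving out 1 library gave 0 to 16 higher (0% to 11.4% of all genes), and limma-voom moved the members' median to 2.67 and that of all genes to 1.89. For RISC over mRNA in control cells, DESeq2 called 54 lower (77.1%, against 27.2% of all genes) and limma-voom 59 (84.3%, against 31.9%). The limma-voom median was -7.23 (all genes -2.89), and leaving out 1 library gave 0 to 42 lower (0% to 28.0% of all genes). For the difference between transfections, DESeq2 called 5 lower (7.04%, against 2.31% of all genes). By limma-voom 0 were higher and 0 lower, of all genes too (median 2.41, all genes 1.53). Leaving out 1 library gave 13 to 24 higher (10.0% to 20.7% of all genes) and 2 to 4 lower (0.106% to 0.388% of all genes). The mean share of counts without Rn45s and insulin was 0.455% and 0.388% in miR-17-5p and control RISC and 5.98% and 4.86% in mRNA, and with non-unique reads in the total 0.215%, 0.196%, 2.72% and 2.14%. Values near 0 in mRNA changed sign: Rpl22l1 to 0.50 by limma-voom and to -0.63 to 0.59 without 1 library (above 0 when miR-17-5p replicate 2 or control replicate 3 was left out, at 0.09 and 0.59), and Rpl36 to -0.13 to 0.08 without 1 library (0.00 and 0.08 when miR-17-5p replicate 6 or control replicate 1 was left out). DESeq2 size factors moved the median of all genes for RISC over mRNA to -0.26 and -0.87, against -0.15 and -0.69 by TMM. The causes were not tested. A floor of 3 counts is 0.224, 0.346 and 0.717 CPM before scaling in control RISC replicates 1 to 3.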
